A study of Mus musculus with 6 samples.

Results

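Transport of drugs, bile constituents, lipids and organic ions across hepatocyte membranes was examined at the level of mRNA in mouse liver cells whose labels differ in the gene for STING, the adaptor of cytosolic DNA sensing. The genes described here are the ABC transporters of the ABCA, ABCB, ABCC and ABCG families and the organic ion transporters of the SLCO and SLC22A families, without *Abcb11*. They were taken by gene symbol among the protein-coding genes of the table, which gave 81 of 57180 genes listed. Of these, 47 had enough reads to be tested and 34 did not.

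Primary hepatocytes came from male mice in 2 groups of 3 libraries each. The STINGLKO group (genotype KO in the labels) derives from STING floxed mice crossed with Albumin-Cre mice, in which Cre recombinase is made in hepatocytes, and the LOXP group carries the genotype LOXP. All 6 cultures received 0.1 mM palmitate (PA), a saturated fatty acid, for 24 h in medium with 0.1 µM dexamethasone and serum, so no group without palmitate is part of the comparison, and dexamethasone is itself a ligand of receptors that act on transporter genes. Neither the ages of the mice nor separate animals or cultures behind the libraries are stated in the labels, and p-values therefore measure the spread between these libraries, which may be technical.

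Hepatocytes are polarized. At the sinusoidal (basolateral) membrane, OATP proteins (SLCO genes) and OCT and OAT proteins (SLC22A genes) take up bile acids, hormones, prostaglandins and drugs from blood. At the canalicular membrane, ABC proteins spend ATP to export phospholipid, sterols and conjugated compounds into bile. Other ABC proteins, chiefly of the ABCC (MRP) family, return conjugates to blood across the basolateral membrane, and further members work in mitochondria or in lysosome-related organelles. Placement of genes on these sides below follows this textbook knowledge and was not measured.

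Promoter sequences are shown for a pair of ABCC exporters whose mRNA rose, *Abcc4* and *Abcc2*, and for the neighbouring genes *Abcb1b* and *Abcb4*, which moved in opposite directions. They were read from RefSeq on build GRCm38.p6, which differs from the build of the table. Windows of 250 bases before the start were matched by symbol for 34 of the 47 tested members and 16 of the 23 called below. On both strands, 4 letter patterns were searched: TGACNNNGC (the core letters of the antioxidant response element bound by NRF2), AGGTCA (a nuclear receptor site), GTTAAT (part of an HNF1 site) and TTCNNNGAA (a STAT site). Capitals mark a match of TGACNNNGC, read on the opposite strand for *Abcc4*. The *Abcc4* window lies at chr14:118706220-118706469 on the minus strand. On the plus strand lie the *Abcc2* stretch at chr19:43782200-43782229, the *Abcb1b* window at chr5:8797897-8798146 and the *Abcb4* stretch at chr5:8893471-8893716. *Abcb4* is printed as 246 bases, cut at the end next to the start, and *Abcc2* as 30 bases of its window.
Abcc4: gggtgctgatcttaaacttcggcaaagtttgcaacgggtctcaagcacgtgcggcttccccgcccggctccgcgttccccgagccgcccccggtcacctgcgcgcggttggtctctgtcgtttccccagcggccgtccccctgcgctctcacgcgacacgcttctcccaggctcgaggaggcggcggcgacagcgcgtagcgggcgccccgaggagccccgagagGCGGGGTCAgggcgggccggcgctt
Abcc2: ctcactgggaTGACATAGCattcatctagc
Abcb1b: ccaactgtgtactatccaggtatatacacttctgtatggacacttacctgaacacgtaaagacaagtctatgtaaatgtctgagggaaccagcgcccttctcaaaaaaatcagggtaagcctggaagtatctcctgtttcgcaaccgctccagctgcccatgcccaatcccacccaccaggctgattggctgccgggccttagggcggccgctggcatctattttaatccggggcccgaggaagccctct
Abcb4: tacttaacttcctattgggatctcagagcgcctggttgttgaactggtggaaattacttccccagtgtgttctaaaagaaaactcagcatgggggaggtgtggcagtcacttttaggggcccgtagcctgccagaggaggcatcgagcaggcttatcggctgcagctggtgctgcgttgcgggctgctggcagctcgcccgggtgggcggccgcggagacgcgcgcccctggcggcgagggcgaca

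The match ran from 25 to 17 bases before the start in *Abcc4* and from 98 to 90 bases before it in *Abcc2*, which also held AGGTCA from 49 to 44 bases before the start. *Abcb1b* and *Abcb4* held none of the 4 patterns. GC content over the full 250 bases was 72.0% in the *Abcc4* window, 52.8% in that of *Abcb1b* and 61.6% in that of *Abcb4*. TGACNNNGC was found in 3 of the 34 members' windows, compared with 10.1% of all 27025 windows, and the 3 members were *Abcc4*, *Abcc2* and *Abcc10*. AGGTCA was in 6 of 34 against 13.8% of all windows, TTCNNNGAA in 3 of 34 against 7.14%, and GTTAAT in 1 of 34 against 6.54%. Among the 10 windows of members that were lower in the STINGLKO libraries, 1 held AGGTCA and none held the other patterns. Among the 6 windows of members that were higher, 2 held TGACNNNGC, those of *Abcc4* and *Abcc2* chosen for printing. In these 6 windows, 1 held AGGTCA, 1 held TTCNNNGAA and 0 held GTTAAT. The risen genes *Abcc1*, *Abcc3* and *Abcc6* had no matched window. A match is a description of letters in this window and not a binding site.

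Counted reads per library ran from 14726983 to 18536985, and the 14151 genes that passed the low-count filter were compared between the groups with edgeR's quasi-likelihood test and Benjamini-Hochberg adjustment. *Sting1* itself (ENSMUSG00000024349) had 19, 16 and 23 counts in LOXP replicates 1, 2 and 3 and 24, 23 and 15 in STINGLKO replicates 1, 2 and 3, a log2 difference of -0.08 (standard error 0.298, edgeR adjusted p = 0.883). The genotype was thus not visible in the reads summed over this gene. By RT-PCR, the paper reports STING mRNA in hepatocytes and its loss in the knockout cells. Counts this low, summed over a whole gene, cannot show whether the floxed part of it was lost. Which part was floxed is not named in the sources used here. The knockout was therefore neither shown nor contradicted by these reads, and STINGLKO below means the libraries labelled so. *Alb* led the hepatocyte markers with a mean FPKM of 7670.1 in LOXP and 6541 in STINGLKO libraries, where FPKM is the read count scaled to gene length and library size. Of 14 hepatocyte markers, 11 fell in the STINGLKO libraries, and their summed FPKM was 13879 to 15093 in LOXP and 10564 to 10737 in STINGLKO libraries. Summed FPKM of 12 macrophage markers was 65.3 to 80.5 in LOXP and 51.2 to 60.4 in STINGLKO libraries (2 of 12 fell), and that of 7 cholangiocyte markers was 119 to 140 and 61.8 to 72.8, with 3 of 4 tested lower, 1 higher, and *Krt7*, *Epcam* and *Cftr* below the filter. Summed FPKM of 11 endothelial markers (1 of 10 tested fell) and of 11 stellate markers (0 of 10 tested changed) overlapped between the groups, from 30.8 to 36.1 and from 18.8 to 21.4 over all libraries, and all 9 lymphocyte markers had 0 counts. Falls and rises of single markers are counted at adjusted p below 0.05, where 11.6% of all tested genes were lower and 11.5% higher. The macrophage (16.7%) and endothelial (10.0%) falls lay near the share called lower. The part of these marker changes in the transporter results was not tested. Fewer cells of a type and less RNA per cell cannot be told apart in bulk RNA.

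Transporter mRNA changed in both directions, by family. Of the 47 tested members, 13 fell and 10 rose in the STINGLKO libraries with adjusted p below 0.05. Across all tested genes, 11.6% were called lower, 11.5% higher and 23.1% in either direction, compared with 48.9% of the tested members. ABCC genes accounted for 7 of the 10 that rose and for none that fell. ABCA genes fell in 5 of 9 tested and rose in none, ABCG genes fell in 2 of 4, and SLCO genes fell in 3 of 7. The ABCB family had 1 lower and 2 higher of 8, and SLC22A had 2 lower and 1 higher of 10. Median log2 fold changes were 0.26 for ABCC, 0.06 for ABCB, -0.10 for ABCG, -0.18 for SLC22A, -0.24 for SLCO and -0.35 for ABCA, beside -0.0021 over all genes tested. The median absolute log2 fold change was 0.34 in tested members and 0.21 over all genes. Groups did not overlap for 17 members that were lower and 12 that were higher in STINGLKO libraries, where 20.3% and 20.4% of all tested genes did the same.

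**Figure D1:**
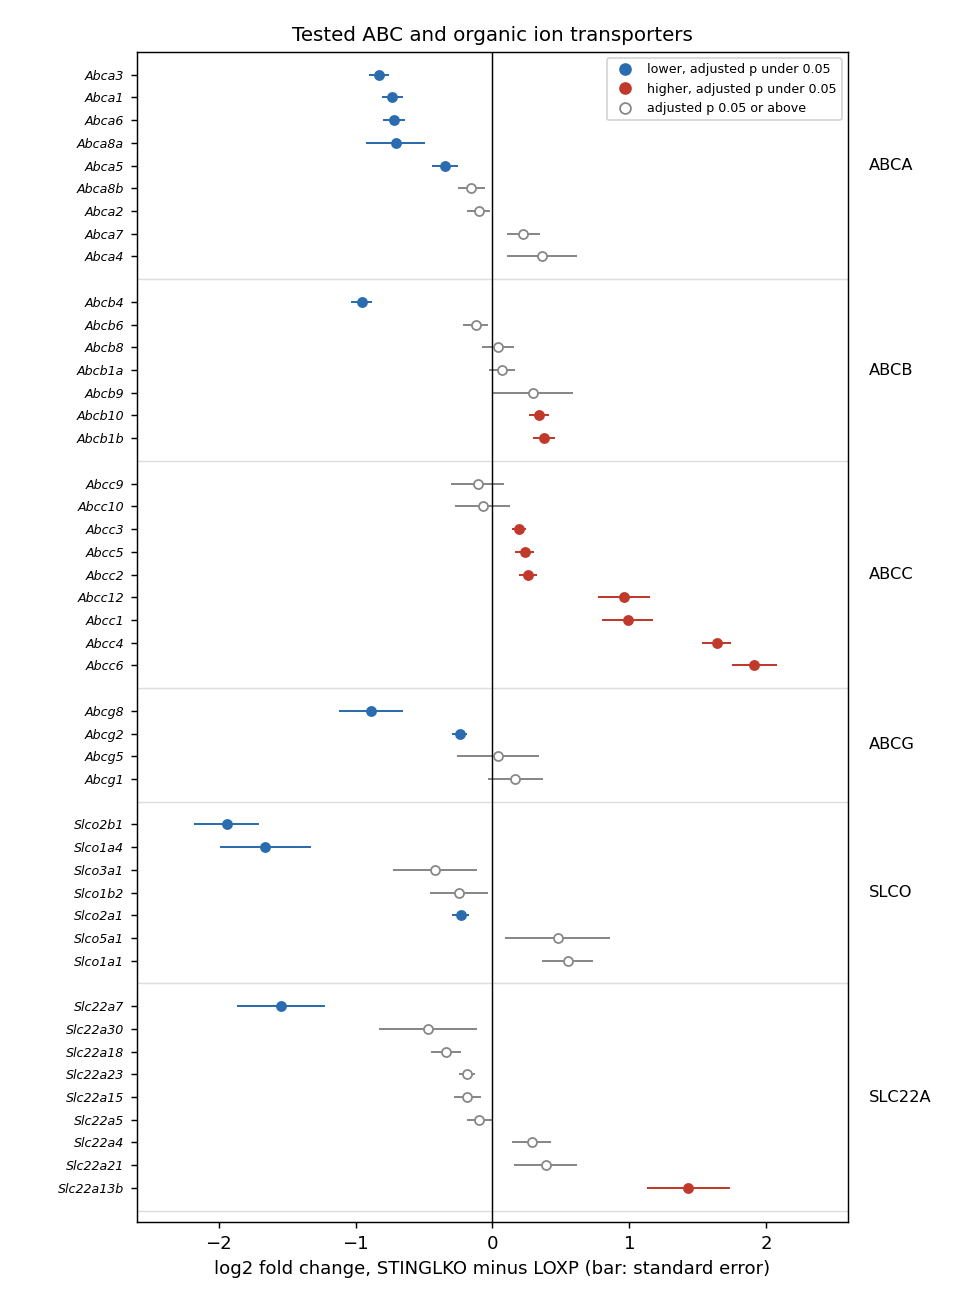
Log2 fold change (STINGLKO minus LOXP, bars are standard errors) of 45 of the 47 tested transporters by family, with filled points where the adjusted p was under 0.05. Filled points of the ABCC family lie to the right of 0, from 0.20 for Abcc3 to 1.91 for Abcc6, and those of the ABCA, ABCG and SLCO families lie to the left.

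The criteria of the study add a log2 fold change beyond 1 in size and, in at least 1 group, an average FPKM over 1. By these, 2 members were higher, *Abcc4* and *Abcc6*, and 0 were lower, beside 0.558% and 1.49% of all tested genes. Lower *Slco2b1*, *Slco1a4* and *Slc22a7* and higher *Slc22a13b* passed all but the FPKM limit. The number of lower members was 8 without LOXP replicate 3 and also without STINGLKO replicate 3. The number of higher members was 6 without STINGLKO replicate 3. Calls over all genes dropped too, from 3274 of 14151 with every library. They were 2310 of 14424 without LOXP replicate 3 and 2248 of 14422 without STINGLKO replicate 3. Each of the 23 calls kept its direction in all alternatives that were run.

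All 6 genes assigned to basolateral efflux passed the test, 5 higher and *Abca1* lower, and the median log2 fold change was 0.61. Of all tested genes 23.1% passed, 11.5% higher and 11.6% lower. *Abcc4* (ENSMUSG00000032849, chromosome 14, 118720104 to 118943631), which encodes the exporter MRP4 of cyclic nucleotides and bile acids, had FPKM of 2.92, 3.59 and 2.79 in LOXP replicates 1 to 3 and 10.1, 10.0 and 9.58 in STINGLKO replicates 1 to 3. The groups were far apart, with the lowest STINGLKO library well above the highest LOXP library. Mean FPKM rose from 3.10 ± 0.431 to 9.90 ± 0.279 (SD, n = 3), 3.11-fold in the fitted counts, and the log2 fold change was 1.64 (standard error 0.107, edgeR adjusted p = 5.17e-05). *Abcc6* (ENSMUSG00000030834, chromosome 7, 45616979 to 45679726), needed for release of ATP from hepatocytes, was less abundant, at 0.316, 0.320 and 0.394 in LOXP and 1.23, 1.27 and 1.49 in STINGLKO libraries. Its 3.76-fold rise (log2 1.91, standard error 0.165, edgeR adjusted p = 1.92e-04) was the largest among the members and rested on 34, 32 and 41 counts against 129, 159 and 170.

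*Abcc1* (ENSMUSG00000023088, chromosome 16, 14179422 to 14293601), the exporter MRP1 of glutathione conjugates, had FPKM of 1.33, 2.12 and 1.28 in LOXP and 3.12, 3.34 and 3.15 in STINGLKO libraries. LOXP replicate 2 stood above the other LOXP libraries and still below every STINGLKO library. The log2 fold change was 0.99 (standard error 0.183, edgeR adjusted p = 0.00647). *Abcc3* (ENSMUSG00000020865, chromosome 11, 94234121 to 94283823), which returns bile acids and glucuronides to blood, was the most abundant member in every library, at 88.1, 92.1 and 91.6 in LOXP and 103, 111 and 106 in STINGLKO libraries. Its rise was small, 1.15-fold (log2 0.20, standard error 0.0532, edgeR adjusted p = 0.0307), and without LOXP replicate 1 or 3, or STINGLKO replicate 1, 2 or 3, the log2 change was 0.17, 0.20, 0.22, 0.16 and 0.21, with adjusted p from 0.0527 to 0.114, within a range of 0.0136 to 0.114 over its alternatives. *Abcc5*, an exporter of cyclic nucleotides, had 2.0, 1.96 and 1.91 in LOXP and 2.43, 2.28 and 2.38 in STINGLKO libraries (log2 0.24, standard error 0.0701, edgeR adjusted p = 0.0417). Without any single one of the 6 libraries its log2 change stayed between 0.22 and 0.26 and its adjusted p between 0.0675 and 0.139. Over its alternatives the adjusted p ranged from 0.0435 to 0.139. With all libraries kept, *Abcc5* was also lost under DESeq2 (adjusted p = 0.123) and edgeR's exact test (0.0880). It was lost too with a looser low-count filter, the replicate number as a block and log2 FPKM. *Abcc3* was lost under the exact test (adjusted p = 0.0715).

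*Abca1* (ENSMUSG00000015243, chromosome 4, 53030787 to 53159895), which loads cholesterol and phospholipid onto apolipoprotein A-I, went the other way. FPKM was 10.9, 9.30 and 10.5 in LOXP and 6.85, 6.02 and 6.07 in STINGLKO libraries, without overlap. It fell by 0.73 on the log2 scale (standard error 0.0797, edgeR adjusted p = 5.60e-04), 1.66-fold. Summed over the 6 genes, FPKM per library rose from 108 ± 1.99 to 130 ± 3.81 (SD, n = 3), a ratio of 1.20. The proportions within this side shifted. *Abcc3* had 30.1, 25.6 and 32.9 times the FPKM of *Abcc4* in LOXP replicates 1 to 3, and 10.2, 11 and 11 times in STINGLKO replicates 1 to 3.

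**Figure D2:**
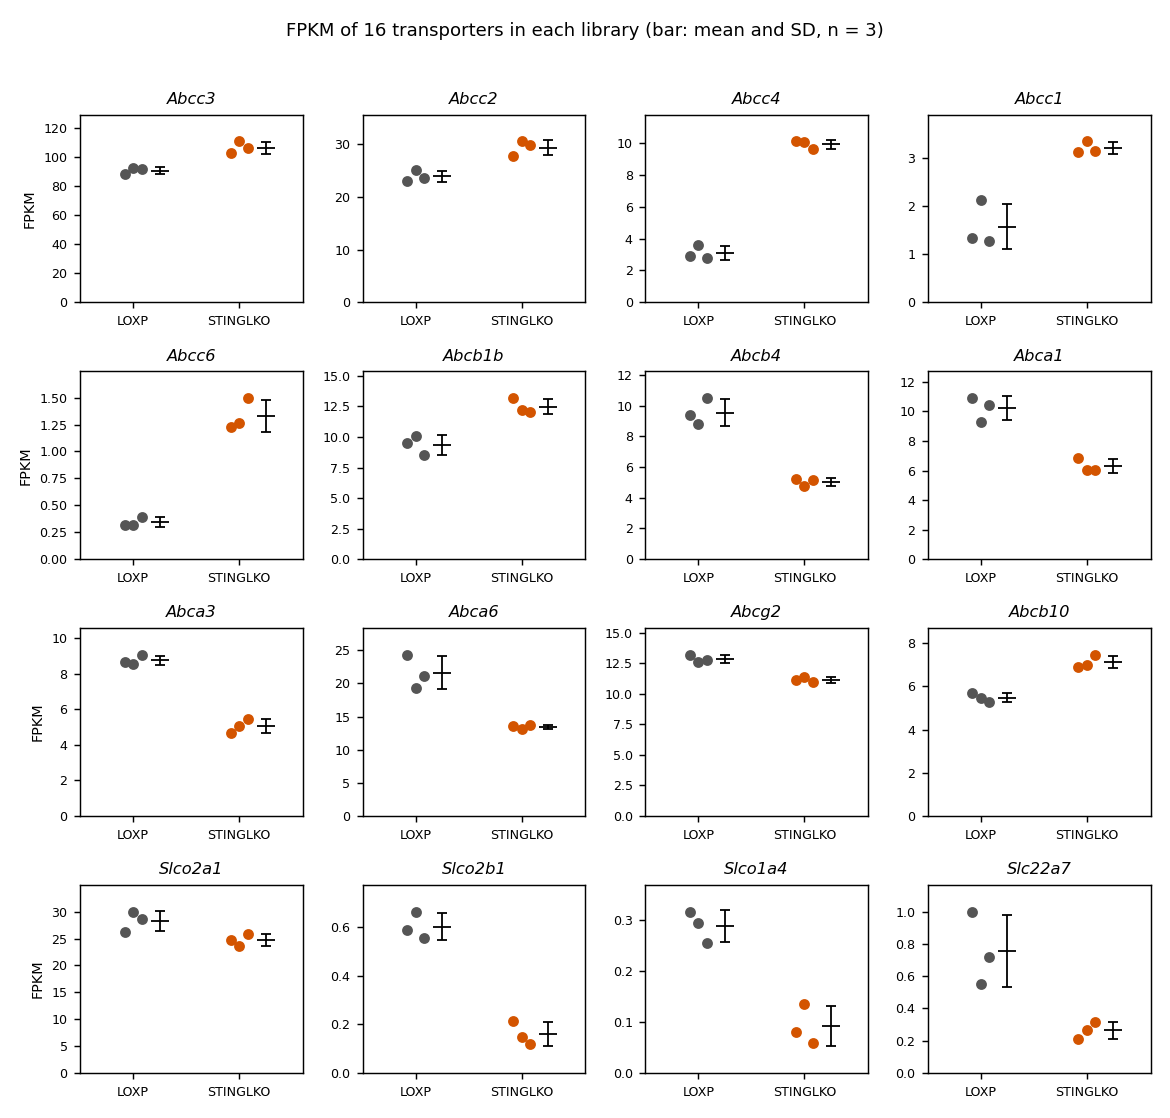
FPKM of 16 transporters in each of the 3 LOXP and 3 STINGLKO libraries, with the mean and SD beside the points and each vertical axis starting at 0. In every panel the points of the groups do not overlap, in genes that were picked among those with adjusted p under 0.05. Abcc4, Abcc6, Slco2b1 and Slco1a4 show the widest gaps relative to their level.

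Canalicular exporters split. Of 7, 3 fell and 2 rose, beside 11.6% and 11.5% of all tested genes. Their median log2 fold change was 0.04. *Abcb4* (ENSMUSG00000042476, chromosome 5, 8943717 to 9009231), the floppase that supplies phosphatidylcholine to bile, had FPKM of 9.35, 8.78 and 10.5 in LOXP and 5.19, 4.76 and 5.18 in STINGLKO libraries. Every STINGLKO library lay below every LOXP library, and the gene fell by 0.96 on the log2 scale (standard error 0.0786, edgeR adjusted p = 1.50e-04), 1.94-fold. Its neighbour *Abcb1b* (ENSMUSG00000028970, chromosome 5, 8848147 to 8916315), which encodes the drug exporter P-glycoprotein, had 9.51, 10.1 and 8.49 in LOXP and 13.2, 12.2 and 12.1 in STINGLKO libraries, and rose by 0.38 (standard error 0.0815, edgeR adjusted p = 0.0123). In LOXP replicates 1 to 3 *Abcb1b* had 1.02, 1.15 and 0.810 times the FPKM of *Abcb4*, and in STINGLKO replicates 1 to 3 it had 2.54, 2.57 and 2.33 times. *Abcb1a* (chromosome 5, 8710077 to 8798575), the other P-glycoprotein gene, had 5.39, 5.70 and 4.71 against 6.18, 5.35 and 5.50, with overlapping groups (log2 0.07, edgeR adjusted p = 0.642). *Abcb1a* and *Abcb1b* are close in sequence, and reads that fit both may have been shared between them. The *Abcb4* and *Abcb1b* promoters printed above lie in the same stretch of chromosome 5 and share none of the letter patterns searched.

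*Abcc2* (ENSMUSG00000025194, chromosome 19, 43770631 to 43829179), the exporter MRP2 of bilirubin conjugates, was the most abundant canalicular gene. FPKM was 23.1, 25.1 and 23.5 in LOXP and 27.7, 30.5 and 29.8 in STINGLKO libraries (log2 0.26, standard error 0.0632, edgeR adjusted p = 0.0199), without overlap. Without LOXP replicate 3, STINGLKO replicate 2 or STINGLKO replicate 3 its log2 change was 0.25, 0.22 and 0.26, with adjusted p of 0.0668, 0.0845 and 0.0626, within a range of 0.00752 to 0.0845 over its alternatives. *Abcg2* (ENSMUSG00000029802, chromosome 6, 58561508 to 58672661), the exporter BCRP of urate, sulphates and drugs, had 13.2, 12.6 and 12.8 in LOXP and 11.1, 11.4 and 10.9 in STINGLKO libraries, and fell by 0.24 (standard error 0.0546, edgeR adjusted p = 0.0161). Without STINGLKO replicate 1 or 3 the log2 change was -0.24 and -0.21, with adjusted p of 0.0564 and 0.0656, within a range of 0.0110 to 0.0656.

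The sterol exporter of bile is a dimer of ABCG5 and ABCG8. *Abcg8* (chromosome 17, 84983730 to 85007761) had FPKM of 0.870, 0.871 and 1.31 in LOXP and 0.685, 0.519 and 0.490 in STINGLKO libraries, and fell by 0.89 (standard error 0.231, edgeR adjusted p = 0.0266). LOXP replicate 3 was highest, and without it the log2 change was -0.67 (adjusted p = 0.0847). Without STINGLKO replicate 2 or 3 it was -0.83 and -0.79, with adjusted p of 0.0908 and 0.0855, within a range of 0.00645 to 0.0908 over its alternatives. *Abcg5* (chromosome 17, 84965662 to 84990439) overlaps *Abcg8* in the table, so reads may be shared between them. It had 1.05, 0.719 and 1.22 against 0.644, 1.14 and 1.35 (log2 0.04, edgeR adjusted p = 0.943), and here the groups overlapped. Summed canalicular FPKM was 62.4 to 63.8 in LOXP and 64.7 to 65.9 in STINGLKO libraries, a ratio of 1.04. This small difference was not tested. FPKM lacks the scaling between libraries that the test used, with factors of 0.973 to 0.999 in LOXP and 1.001 to 1.023 in STINGLKO libraries.

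Sinusoidal uptake genes fell where they passed the test. Of 8 genes on this side 7 were tested, 4 fell and 0 rose, beside 11.6% of all tested genes called lower and 11.5% higher. Of the 4, the OATP genes *Slco2b1* and *Slco1a4* and the OAT gene *Slc22a7* had low levels. *Slco2b1* (ENSMUSG00000030737, chromosome 7, 99307011 to 99360547), an OATP for steroid conjugates and drugs, had 84, 88 and 77 counts in LOXP and 30, 25 and 18 in STINGLKO libraries. That is an FPKM of 0.602 ± 0.0546 against 0.161 ± 0.0488 (SD, n = 3), and the 3.84-fold decrease (log2 -1.94, standard error 0.238, edgeR adjusted p = 9.25e-04) was the largest among the members. The non-coding gene *Gm15635* overlaps it with 9.94% as many counts. *Slco1a4* (ENSMUSG00000030237, chromosome 6, 141751166 to 141801925), an OATP for bile acids and cardiac glycosides, had 36, 31 and 28 counts in LOXP and 9, 18 and 7 in STINGLKO libraries (log2 -1.66, standard error 0.333, edgeR adjusted p = 0.00902). *Slc22a7* (ENSMUSG00000067144, chromosome 17, 46743109 to 46749383), the organic anion transporter OAT2, had 39, 20 and 27 counts in LOXP and 8, 12 and 13 in STINGLKO libraries (log2 -1.55, standard error 0.322, edgeR adjusted p = 0.0107). The groups did not overlap for these 3 genes. On the scale of log2(FPKM + 1), which compresses low genes, the log2 changes of *Slco2b1*, *Slco1a4* and *Slc22a7* were -0.47, -0.24 and -0.47 and still passed the test.

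The other 3 tested uptake genes did not pass. *Slco1a1*, an OATP of male mouse liver, was at 0.836, 1.33 and 1.02 FPKM in LOXP and 1.58, 1.78 and 1.42 in STINGLKO libraries, the 1 gene of this side with higher values in every STINGLKO library (log2 0.55, standard error 0.186, edgeR adjusted p = 0.0655, from 0.0175 to 0.198 over its alternatives). *Slco1b2*, the OATP for bilirubin and bile acids, was at 0.781, 0.478 and 0.601 against 0.508, 0.561 and 0.540 (log2 -0.24, edgeR adjusted p = 0.454). *Slc22a5*, the carnitine transporter OCTN2, was at 4.18, 4.63 and 4.32 against 4.05, 4.26 and 4.29 (log2 -0.09, edgeR adjusted p = 0.504). Both sets of values overlapped between the groups. *Slc22a3* had 18 counts over all 6 libraries and was not tested. Hepatocyte markers fell over the same libraries, as given above.

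**Figure D3:**
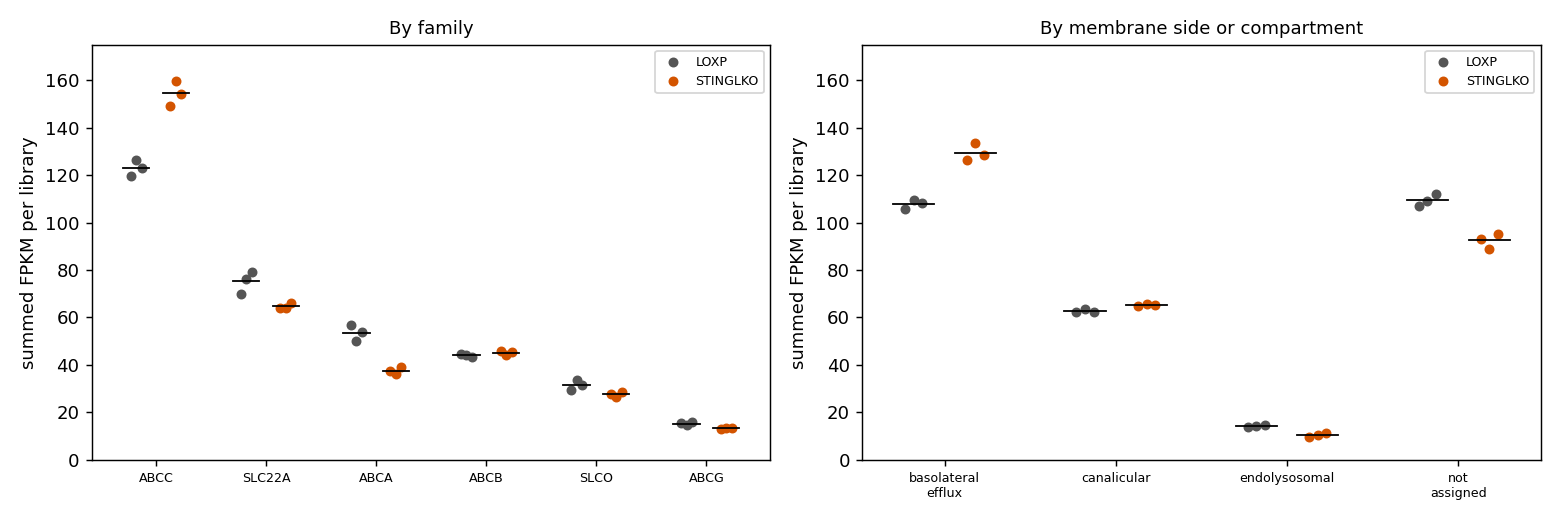
Summed FPKM per library by family (left) and by 3 membrane sides or compartments and for members with none assigned (right), with points for the 3 libraries of each group and a line at their mean. ABCC and basolateral efflux sums lie higher in all STINGLKO libraries, ABCA, SLC22A, SLCO, ABCG and endolysosomal sums lie lower, and the ABCB sums overlap.

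Lipid transporters of the ABCA family fell. Besides *Abca1*, *Abca6* (ENSMUSG00000044749, chromosome 11, 110067646 to 110142602), a lipid transporter of the ABCA5 cluster and the most abundant ABCA gene, had FPKM of 24.3, 19.4 and 21.2 in LOXP and 13.6, 13.1 and 13.7 in STINGLKO libraries. The LOXP libraries spread widely, and none came near the STINGLKO libraries. *Abca6* fell by 0.72 (standard error 0.0806, edgeR adjusted p = 6.22e-04). *Abca3* (ENSMUSG00000024130, chromosome 17, 24570924 to 24629175), which loads phospholipid into lamellar bodies in the lung, had 8.64, 8.58 and 9.05 in LOXP and 4.67, 5.04 and 5.48 in STINGLKO libraries, and fell by 0.83 (standard error 0.0727, edgeR adjusted p = 2.15e-04), 1.77-fold. The groups were again apart.

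*Abca5* and *Abca8a*, neighbours of *Abca6* on chromosome 11, also passed the test, though the calls depended on single libraries and on the test or filter. With all libraries kept, *Abca5* was lost with a looser low-count filter and on the log2 FPKM scale. *Abca8a* was lost under both, under DESeq2 (adjusted p = 0.119) and with the replicate number as a block. *Abca5* (110160195 to 110228542) had FPKM of 2.14, 1.84 and 1.93 in LOXP and 1.74, 1.53 and 1.49 in STINGLKO libraries (log2 -0.35, standard error 0.0945, edgeR adjusted p = 0.0306). Without LOXP replicate 1 or 3, or STINGLKO replicate 2 or 3, the log2 change of *Abca5* was -0.29, -0.37, -0.33 and -0.29, with adjusted p of 0.0764, 0.0623, 0.103 and 0.107, within a range of 0.0255 to 0.110. *Abca8a* (109916460 to 109986804) had 0.502, 0.370 and 0.408 against 0.283, 0.222 and 0.301 (log2 -0.71, standard error 0.214, edgeR adjusted p = 0.0460), and without any single one of the 6 libraries its log2 change was between -0.79 and -0.58 and its adjusted p from 0.0561 to 0.157, within a range of 0.0296 to 0.157. *Abca8b*, its close paralog in the same cluster, with which it may share reads, had a mean FPKM of 1.78 in LOXP and 1.64 in STINGLKO libraries (log2 -0.15, edgeR adjusted p = 0.298). *Abca7* had 3.52 and 4.23 (log2 0.23, edgeR adjusted p = 0.224), and *Abca4* had 0.127 and 0.167 (log2 0.36, edgeR adjusted p = 0.360). Summed ABCA FPKM fell from 53.5 ± 3.46 to 37.6 ± 1.65 (SD, n = 3), a ratio of 0.70, the lowest of the 6 families.

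Inside the cell, 1 of 4 mitochondrial and 1 of 3 endolysosomal members passed the test, beside 23.1% of all tested genes. *Abcb10* (chromosome 8, 124679198 to 124709861), a mitochondrial exporter tied to heme synthesis, had FPKM of 5.70, 5.46 and 5.27 in LOXP and 6.90, 7.0 and 7.45 in STINGLKO libraries, and rose by 0.34 (standard error 0.0747, edgeR adjusted p = 0.0131). Without STINGLKO replicate 3 its log2 change was 0.32 with an adjusted p of 0.0527, within a range of 0.0106 to 0.0527. *Abcb6*, a porphyrin transporter, had 3.41, 3.61 and 3.32 against 2.91, 3.46 and 3.36 (log2 -0.12, edgeR adjusted p = 0.372), and *Abcb8* had 2.25, 2.50 and 3.01 against 2.53, 2.77 and 2.87 (log2 0.04, edgeR adjusted p = 0.843). For both the groups overlapped.

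In the endolysosomal set *Abca3* was the gene that fell. *Abca2*, a sterol-linked transporter of lysosomes, had FPKM of 4.91, 5.21 and 4.95 in LOXP and 4.44, 4.64 and 5.35 in STINGLKO libraries (log2 -0.10, edgeR adjusted p = 0.448). *Abcb9*, a lysosomal peptide transporter, had 0.275, 0.564 and 0.680 against 0.672, 0.616 and 0.621 (log2 0.29, edgeR adjusted p = 0.525). Both overlapped between the groups, and LOXP replicate 1 was the lowest library for *Abcb9*.

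Among members with no side assigned, *Slco2a1* (ENSMUSG00000032548, chromosome 9, 102865911 to 102973201), the prostaglandin transporter, was the most abundant. It had FPKM of 26.3, 30.0 and 28.7 in LOXP and 24.7, 23.7 and 25.8 in STINGLKO libraries, with a narrow gap between the groups, and fell by 0.23 (standard error 0.0651, edgeR adjusted p = 0.0343). Without LOXP replicate 2 or 3, or STINGLKO replicate 1, 2 or 3, the log2 change was -0.18, -0.23, -0.23, -0.21 and -0.25. Adjusted p was then from 0.0689 to 0.121, within a range of 0.00996 to 0.121 over its alternatives. With all libraries kept, the call was also lost with a looser low-count filter and on the log2 FPKM scale. *Slc22a18*, an orphan carrier of an imprinted region, had 20.2, 24.0 and 26.4 against 19.2, 19.8 and 18.1 (log2 -0.34, edgeR adjusted p = 0.0508, from 0.00856 to 0.155 over its alternatives). *Slc22a23*, an orphan member, had 22.0, 21.9 and 21.1 against 19.6, 18.5 and 20.7 (log2 -0.18, edgeR adjusted p = 0.0533, from 0.0457 to 0.197). Neither pair of groups overlapped, and neither gene passed the threshold.

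At low levels, *Abcc12* had FPKM of 0.455, 0.338 and 0.486 in LOXP and 0.998, 0.823 and 0.741 in STINGLKO libraries, and rose by 0.96 (standard error 0.188, edgeR adjusted p = 0.00815). *Slc22a13b*, which has a close paralog in *Slc22a13*, had 10, 16 and 17 counts in LOXP and 42, 37 and 53 in STINGLKO libraries, a 2.70-fold rise (log2 1.43, standard error 0.304, edgeR adjusted p = 0.0116). It was the 1 SLC22A gene that rose. On the log2(FPKM + 1) scale the rises of *Abcc12*, *Slc22a13b* and *Abcc6* were 0.38, 0.53 and 0.79. *Slc22a4*, the ergothioneine transporter, had a mean FPKM of 2.0 in LOXP and 2.51 in STINGLKO libraries (log2 0.29, edgeR adjusted p = 0.199). The other tested members that did not pass lay between -0.47 (*Slc22a30*) and 0.48 (*Slco5a1*) on the log2 scale.

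The 34 members below the filter had 243 counts in total over the 6 libraries, no more than 14 in any 1 library, and 18 of them were at 0 throughout, a count that is compatible with up to 3 reads per library. The 18 were 10 SLC22A, 4 ABCA, 3 SLCO and 1 ABCB gene. They included the kidney carriers *Slc22a6*, *Slc22a8* and *Slc22a12*, the proteins OAT1, OAT3 and URAT1. *Slco4a1*, with 50 counts, and *Abca9*, with 45, were the highest of the untested genes. Changes in these genes were not detectable at this depth.

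Levels over all tested members ran from a mean FPKM of 0.0271 to 98.5, with a median of 2.16. *Abcc3* alone held 26.5% of the summed FPKM of all 81 members in LOXP libraries on average and 31.1% in STINGLKO libraries. Next were *Abcc2* at a mean FPKM of 26.6 over all libraries and *Slco2a1* at 26.5, close means over groups in which their order was opposite. *Slc22a18* at 21.3 and *Slc22a23* at 20.6 followed. In LOXP libraries *Slco2a1* was ahead of *Abcc2*, at 28.3 ± 1.88 against 23.9 ± 1.04, and in STINGLKO libraries *Abcc2* was ahead, at 29.3 ± 1.44 against 24.7 ± 1.04 (SD, n = 3). Summed over all members, FPKM was 336 to 347 in LOXP and 337 to 346 in STINGLKO libraries, a ratio of 1.0. The ABCC sum went from 123 ± 3.55 to 154 ± 5.26, a ratio of 1.26, and the SLC22A, SLCO and ABCG sums had ratios of 0.86, 0.88 and 0.86.

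Receptors and transcription factors known to act on transporter genes were listed beside them. Of 22 regulators, 6 fell and 0 rose (27.3% called), with a median log2 fold change of -0.18. Over all tested genes, 11.6% were called lower and 23.1% in either direction. *Nr1i2*, the xenobiotic receptor PXR, had FPKM of 8.58, 8.59 and 11 in LOXP and 3.56, 3.21 and 4.39 in STINGLKO libraries and fell by 1.37 (standard error 0.146, edgeR adjusted p = 4.97e-04). *Ahr*, the dioxin receptor, fell by 1.02 (edgeR adjusted p = 8.81e-05), *Hnf4a* by 0.59 (3.38e-04) and *Nr1h4*, the bile acid receptor FXR, by 0.54 (0.00939). *Nr0b2*, the repressor SHP, fell by 2.40 from a low level (edgeR adjusted p = 0.0113), and without STINGLKO replicate 2 the change was -2.24 with an adjusted p of 0.0503, within a range of 3.41e-05 to 0.0503. *Nr5a2* fell by 0.51 (edgeR adjusted p = 0.0214), and without STINGLKO replicate 1 or 3 it was -0.52 and -0.46, with adjusted p of 0.0645 and 0.0768, within a range of 0.00228 to 0.0768. The abundant regulators *Cebpb*, *Nfe2l2* and *Rxra* had log2 changes of 0.12, -0.18 and -0.07 and did not pass. *Nfe2l2* encodes NRF2, whose activity is set largely at the protein level, where mRNA does not report it. NRF2 activity was not measured.

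**Figure D4:**
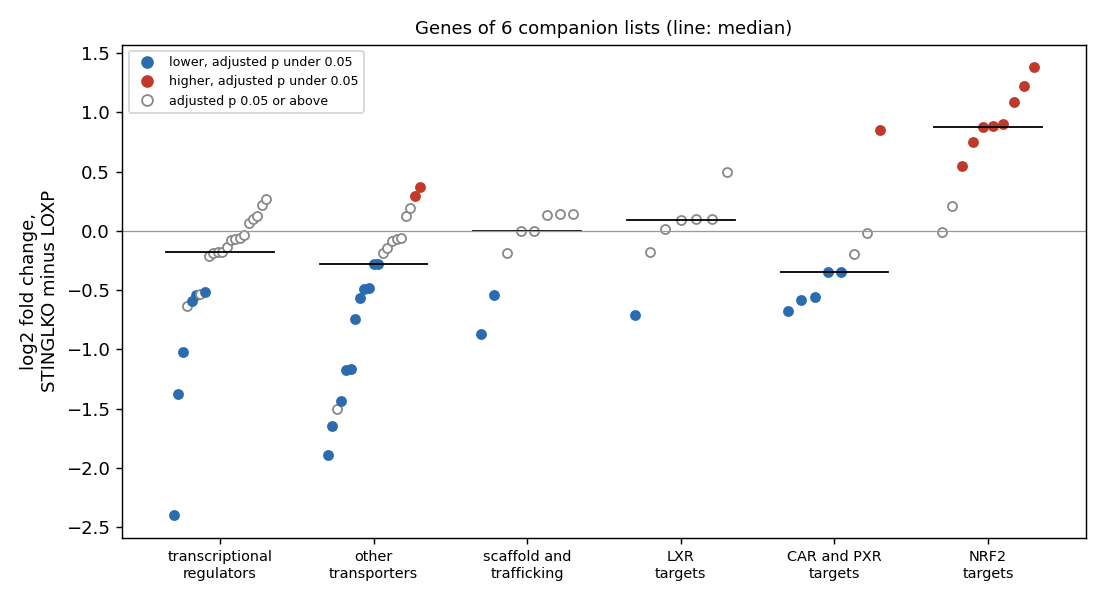
Log2 fold change (vertical axis, STINGLKO minus LOXP) of the tested genes in 6 lists that hold no transporter described above, 1 point per gene, with filled points where the adjusted p was under 0.05. Lines mark the list medians. Of the NRF2 targets 8 of 10 are filled and lie above 0, and of the regulators 6 of 22 are filled and lie below 0. Over all tested genes, 11.5% were called higher and 11.6% lower.

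Lists of known target genes moved differently, beside 11.6% of all tested genes called lower and 11.5% higher. Of 10 NRF2 targets, which serve glutathione synthesis and antioxidant defence, 8 rose and 0 fell, with a median of 0.88. *Srxn1* had FPKM of 71.4, 71.8 and 67.6 in LOXP and 188, 194 and 181 in STINGLKO libraries (log2 1.38, standard error 0.0559, edgeR adjusted p = 2.86e-06). *Slc7a11* rose by 1.22, *Nqo1* by 1.08, *Gclc* by 0.90, *Hmox1* by 0.88, *Gsta1* by 0.87, *Gclm* by 0.75 and *Txnrd1* by 0.55, while *Gstm1* (0.21) and *G6pdx* (-0.01) did not pass. *Abcc1*, *Abcc2*, *Abcc3* and *Abcc4*, which are known as NRF2-responsive genes in mouse liver, are not in this list. Whether NRF2 had a part in their rise was not tested. Of 9 targets of the receptors CAR and PXR, 8 were tested, 5 fell and 1 rose, with a median of -0.35. *Cyp2a5* fell by 0.67, *Cyp2b10* by 0.59, *Alas1* by 0.56 and *Cyp3a11* by 0.35, while *Gsta2*, a glutathione transferase that also answers to NRF2, rose by 0.85. *Ces2a* fell by 0.35 (edgeR adjusted p = 0.0379) and was lost without LOXP replicate 2 or 3 or STINGLKO replicate 1, 2 or 3, at -0.28, -0.35, -0.40, -0.37 and -0.27, with adjusted p from 0.0562 to 0.120, within a range of 0.0258 to 0.120. Of 7 LXR targets apart from the members, 1 fell, *Scd1* by 0.71, beside 11.6% of all tested genes called lower. The median of these targets was 0.09.

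Carriers of other families moved in both directions, mostly down. Of 24 listed, 21 were tested, 11 fell and 2 rose (61.9% called), with a median of -0.28. Among all tested genes the shares were 11.6% lower, 11.5% higher and 23.1% in either direction. *Slc2a2*, the glucose transporter GLUT2, had FPKM of 10.5, 8.73 and 11.4 in LOXP and 5.12, 4.42 and 4.32 in STINGLKO libraries and fell by 1.18 (standard error 0.109, edgeR adjusted p = 2.57e-04). The organic anion carriers *Slc17a4* and *Slc17a2* fell by 1.90 and 1.64, the bile acid carrier *Slc10a2* by 1.43 and *Slc6a12* by 0.74. The bile acid ligase *Slc27a5* fell by 0.49, the phospholipid flippase *Atp8b1* by 0.49 and *Slc38a4* by 0.28. Whether the *Slc10a2* reads came from hepatocytes or from cholangiocytes, whose markers also fell, was not tested. *Slc16a1*, a lactate carrier, rose by 0.37. *Slc10a1*, the bile acid uptake carrier NTCP, fell by 0.57 (edgeR adjusted p = 0.0282), and without LOXP replicate 1 or 3 or STINGLKO replicate 1, 2 or 3 the change was -0.55, -0.47, -0.52, -0.58 and -0.61, with adjusted p from 0.0608 to 0.0931, within a range of 0.0123 to 0.0931. *Slc17a1* fell by 1.17 (edgeR adjusted p = 0.0247), and without LOXP replicate 1 or 3 or STINGLKO replicate 1 or 2 it was -0.98, -1.15, -1.03 and -1.13, with adjusted p from 0.0687 to 0.0873, within a range of 0.00393 to 0.0873. The peroxisomal *Abcd3* fell by 0.28 (edgeR adjusted p = 0.0156), and without STINGLKO replicate 2 or 3 it was -0.29 and -0.24, with adjusted p of 0.0569 and 0.0620, within a range of 0.00469 to 0.0620. *Abcd4* rose by 0.29 (edgeR adjusted p = 0.0298), and without any single library other than LOXP replicate 3 its adjusted p was from 0.0680 to 0.100 at log2 changes of 0.26 to 0.30, within a range of 0.0317 to 0.100. Of 8 tested scaffold and trafficking genes of these membranes, *Pdzk1*, which holds carriers at the membrane, fell by 0.87 (edgeR adjusted p = 0.0104) and *Bsg* by 0.54 (8.40e-04), and *Nherf1*, *Msn* and *Ezr* had log2 changes of 0.00, 0.14 and 0.13 and did not pass.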

How the data were processed

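RNA of 6 hepatocyte libraries, 3 per group by the labels, was analysed from the table the authors deposited, which lists 57180 genes with raw read counts and FPKM for every library. The submitters' processing notes name fastp, HISAT2, StringTie, edgeR and build GRCm39. Versions, annotation, counting and strand settings are not given in the sources used here, so overlapping and near-identical genes are uncertain. All 12 columns of values were used.

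Counts were compared in R 4.3.3 with edgeR 4.0.16 (filterByExpr with a minimum count of 10, TMM, two-sided quasi-likelihood test, Benjamini-Hochberg adjustment over 14151 genes), and standard errors are the log2 fold change over the square root of F. Levels between genes and summed levels use the deposited FPKM, without the TMM factors. Ratios of STINGLKO to LOXP libraries in FPKM therefore lie slightly above those of the fitted counts. The fit was tested on simulated data. Alternatives used DESeq2 1.42.0 and limma 3.58.1, other filters and each library left out. Figures used matplotlib 3.10.9. Replicates differed by more than counting noise (chi-square per degree of freedom 7.58 to 16.1).

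Members, lists and tests were chosen with earlier results of these data known. Values per library are given for members past the threshold at a mean FPKM above 1, the 2 most abundant of each family and tested members of the side lists, and of other lists for genes past the threshold or among the 3 most abundant. Other genes named were chosen after their values were seen. A few members are counted but not named or reported singly.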

Additional observations from a re-analysis of the deposited data

How the results depend on the processing

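Of the 23 transporters past the threshold, 13 passed under each of the 14 alternatives that could test them (other normalizations and tests, low-count filters, log2 FPKM with a pseudocount, the replicate number as a block, each library left out), and 0 of the 23 changed direction. The 13 were *Abca1*, *Abca3*, *Abca6*, *Abcb1b*, *Abcb4*, *Abcc1*, *Abcc4*, *Abcc6*, *Abcc12*, *Slc22a7*, *Slc22a13b*, *Slco1a4* and *Slco2b1*. A filter of 10 counts in every library left out *Slc22a7* and *Slco1a4*. With each library left out in turn, 8 to 12 members were lower and 6 to 10 higher. Over all genes, 1974 to 3025 were then called, against 3274 with every library. The side lists had 7 to 9 lower and 4 to 8 higher, and the other lists 20 to 25 and 10 to 12. In the other lists, 29 of 36 calls passed throughout. By the study's criteria 0 to 1 members were lower, *Abcg8* without LOXP replicate 2 and *Abcb4* without STINGLKO replicate 1, and 2 to 3 higher. Without the FPKM criterion 3 were lower and 3 higher, and limma-trend on log2(FPKM + 1) left 1 higher, the cause being the compression of low values. *Sting1* lay between -0.26 and 0.11 on the log2 scale.

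Directions of members that did not pass were not stable for 7 genes when 1 library was left out. Their log2 changes ran from -0.0052 to 0.15 (*Abcb1a*), -0.060 to 0.16 (*Abcb8*), -0.014 to 0.56 (*Abcb9*), -0.19 to 0.10 (*Abcc10*), -0.21 to 0.031 (*Abcc9*), -0.17 to 0.29 (*Abcg5*) and -0.60 to 0.020 (*Slco3a1*).

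With the replicate number as a block, 21 members were called, 11 lower and 10 higher, of which 20 were among the 23. Deviations from the group means correlated at 0.120, 0.0834 and 0.0134 between libraries of the same number, and LOXP replicate 3 correlated best with STINGLKO replicate 2, so the numbers were not taken as pairs. Under the block *Abca8a*, *Abcc5* and *Abcg8* had adjusted p of 0.0597, 0.0591 and 0.0521, and *Slco1a1* had 0.0399. Genes under 1 FPKM rest on few reads per library, and changes in them are the least precise.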
